A study of Mus musculus with 12 samples.

Results

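The receptors and ligands of the GDNF family and of the neurotrophins were followed as 9 genes chosen by name, out of 54356 genes annotated in the libraries: the ligand genes Gdnf, Bdnf and Ntf3, the GDNF family receptor genes Ret, Gfra1 and Gfra2, and the neurotrophin receptor genes Ntrk2, Ntrk3 and Ngfr. RNA was sequenced in 12 libraries from cultures labelled as astrocytes of C57BL/6 mice, 6 libraries from cortex and 6 from midbrain. In each region 2 libraries came from mock cells kept in growth medium, 2 from cells given a short hairpin RNA against PTB (the splicing repressor made by Ptbp1) and held for 2 weeks in a medium for neuronal differentiation, and 2 from such cells held there for 4 weeks; the hairpin cultures are called shPTB here. The study set out to follow the change of gene expression from astrocytes to neurons. The labels do not say what the mock cells received, how old they were, or whether libraries of a group came from separate cultures, so p-values measure the spread between these libraries, which may be technical. Hairpin, medium and time in culture changed together between mock and shPTB cells and cannot be told apart.

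GDNF and its relative neurturin act by binding a membrane-anchored co-receptor, GFRα1 for GDNF and GFRα2 for neurturin, and the pair then engages the receptor tyrosine kinase RET. Neurotrophins bind kinases of the Trk family, BDNF to TrkB (Ntrk2) and neurotrophin-3 to TrkC (Ntrk3), and all of them also bind the p75 receptor (Ngfr), which has no kinase. Astrocytes are known for a short form of TrkB that lacks the kinase, while RET is known from dopaminergic, motor and sensory neurons.

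Levels are given as CPM, read counts brought to a common depth per library and scaled between libraries by the trimmed mean of M-values (TMM), and a gene is said to have risen or fallen where edgeR's quasi-likelihood test over all 14607 tested genes gave an adjusted p under 0.05. Total reads ranged from 6022098 to 11385761 per library. The mock libraries stood apart: mitochondrial genes took 16.9 to 22.7% of their reads against 36.4 to 48.3% in shPTB libraries, and the 2 mock libraries of a region differed more than 2-fold at 14.8 to 17.3% of genes against 0.399 to 0.745% in the shPTB groups. With total reads in place of TMM as the scale, the median log2 fold change of all genes was -0.85 and -1.21 in cortex and -0.74 and -1.01 in midbrain (2 and 4 weeks), so changes are relative to the bulk of the genes. Ptbp1 was at 173 and 251 CPM in cortical mock, 73.0 to 73.5 at 2 weeks and 89.2 to 90.5 at 4 weeks; in midbrain it was at 208 and 250 CPM in mock, 90.8 to 105 at 2 weeks and 155 to 169 at 4 weeks. Astrocyte markers summed to 12801 and 21812 CPM in cortical mock and 13800 to 14510 in cortical shPTB libraries. In midbrain the sums were 11040 and 14491 CPM in mock and lower, 7331 to 9903, in shPTB libraries. At least 9 of 10 markers reached 1 CPM in each group. At 4 weeks 3 of the 10 rose and 4 fell in each region (18.5 and 20.9% of all genes in cortex, 18.7 and 20.4% in midbrain). At 2 weeks 3 rose and 2 fell in cortex (17.5 and 17.6%), and 2 rose and 2 fell in midbrain (15.9 and 14.7%). Of other cell types, microglial markers had sums of 1075 to 1629 CPM (mock) and 22.4 to 71.7 CPM (shPTB). Fibroblast and pericyte markers had sums of 826 to 2214 CPM (mock) and 51.1 to 336 CPM (shPTB). The part of these other cells in the results was not tested, and in bulk RNA fewer cells of a type and less RNA per cell cannot be told apart.

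Of the 9 genes, 7 passed the filter on low counts; Gdnf and Ntf3 did not. Ret, Gfra2 and Ntrk3 rose in both regions at both times, Ngfr rose in 3 of the 4 comparisons with mock, Gfra1 fell in cortex and rose in midbrain, Bdnf fell in cortex, and Ntrk2 passed in none. In cortex at 2 weeks 4 of the 7 rose, where 17.5% of all tested genes rose, and 2 fell, where 17.6% of all fell. At 4 weeks the cortical count was again 4 up (18.5% of all genes) and 2 down (20.9%). In midbrain 5 rose at 2 weeks (15.9% of all genes) and 0 fell (14.7%), and 4 rose at 4 weeks (18.7%) and 0 fell (20.4%). The median log2 fold change of the 7 was 2.99 and 2.12 in cortex and 1.80 and 1.25 in midbrain, beside -0.11, -0.12, -0.07 and -0.15 over all tested genes; the 2 comparisons with mock of a region share its mock libraries.

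**Figure D1:**
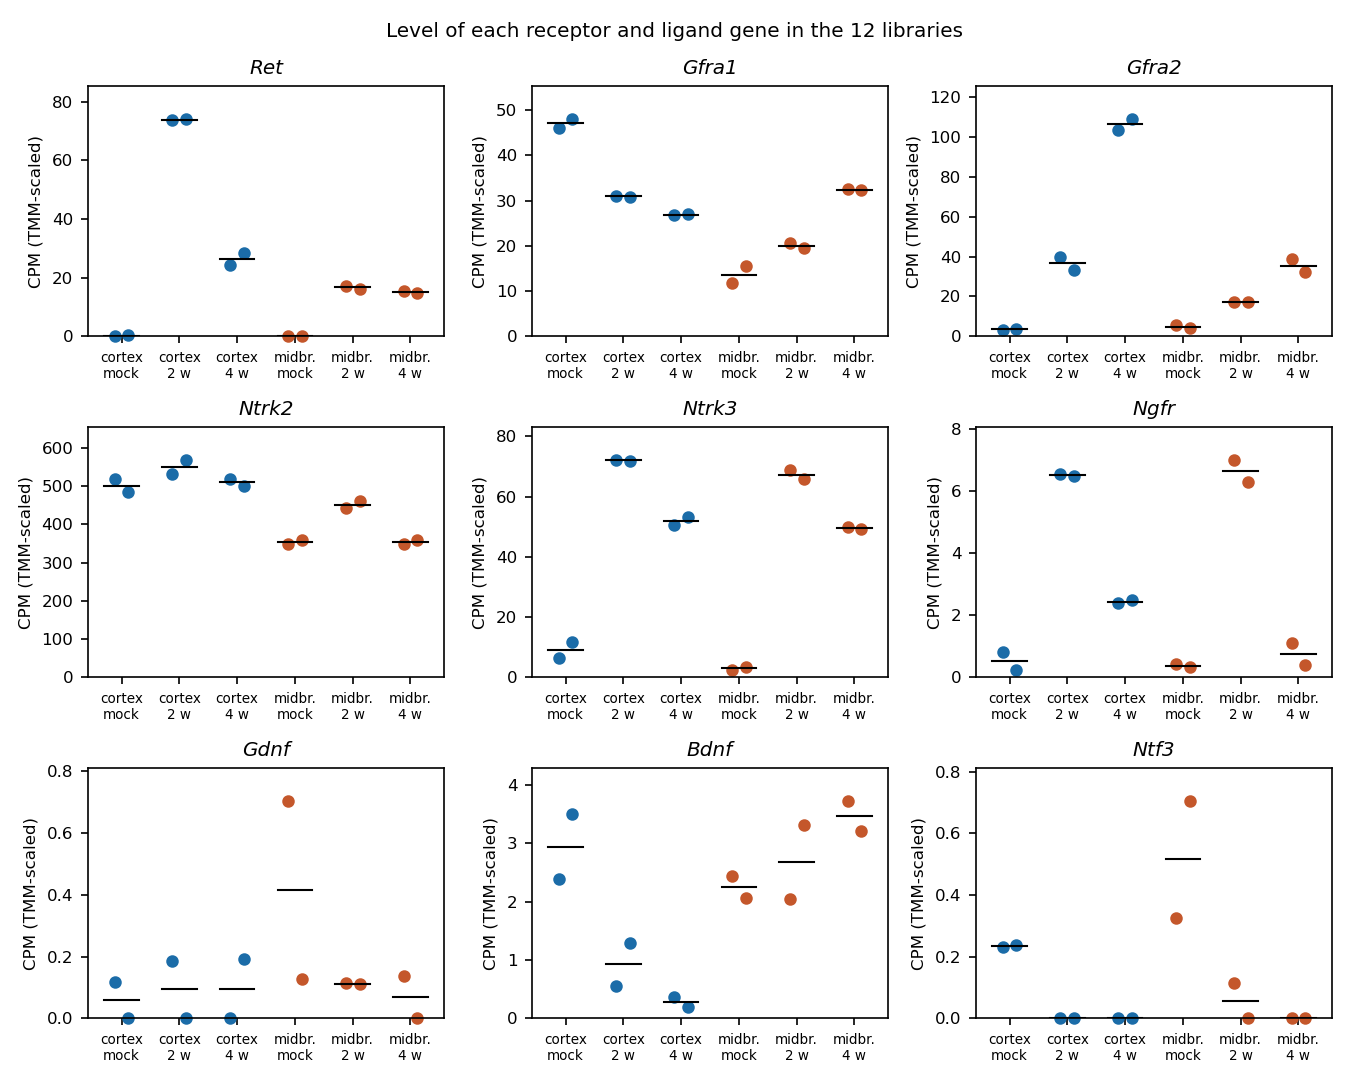
Level of each of the 9 genes in the 12 libraries, in CPM on linear axes that start at 0 (each panel has its own scale). Points are libraries (blue cortex, orange midbrain), horizontal lines are means of 2 libraries. Ret, Gfra2, Ntrk3 and Ngfr are low in both mock groups, and Bdnf is lowest in cortical shPTB cultures at 4 weeks, at 0.192 and 0.366 CPM.

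**Figure D2:**
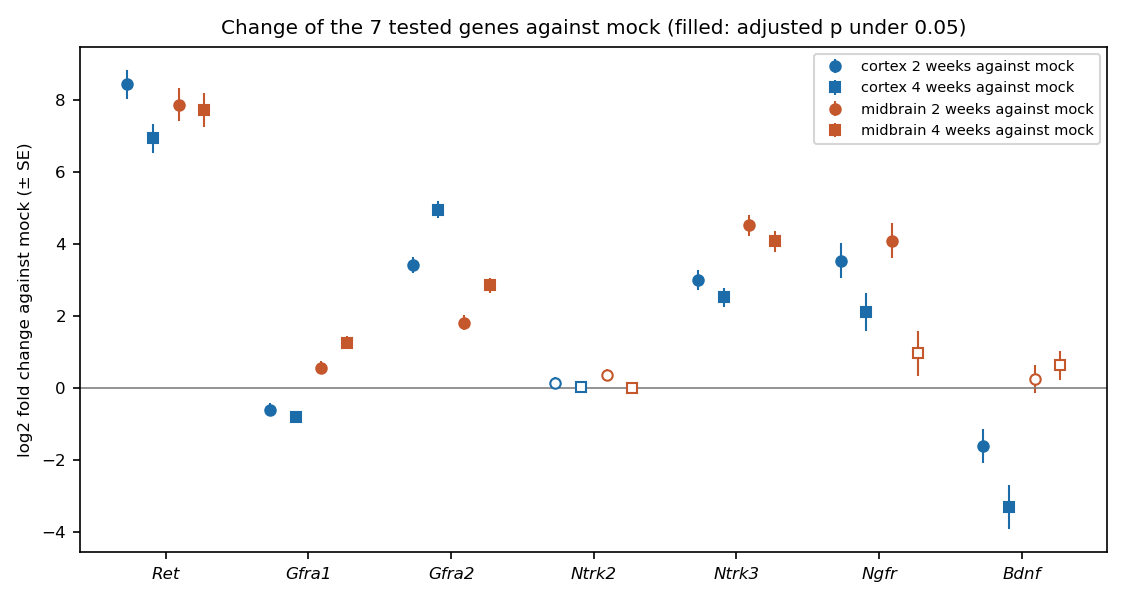
Log2 fold change against mock of the 7 tested genes, with its standard error (vertical bars). The standard error is taken from the test statistic and can misstate the precision where a group holds few reads, as for Ret. Circles are 2 weeks and squares 4 weeks, blue cortex and orange midbrain, and filled symbols have an adjusted p under 0.05 (edgeR). Ret has the highest values, 6.93 to 8.42, and the 4 Ntrk2 symbols lie between 0.00 and 0.35.

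Among the ligands, Gdnf (chr15:7810846-7837575, plus strand, GRCm38), the founding ligand of its family, was close to the limit of detection everywhere. It had 2 and 0 reads in the cortical mock libraries, 13 and 2 in midbrain mock, and 0 or 1 in each of the 8 shPTB libraries. Only the first midbrain mock library stands out, at 0.705 CPM, and its partner (0.128 CPM) lies within the range of the other groups (0 to 0.192 CPM). Over both midbrain mock libraries the 15 reads were 6.57-fold higher than the 2 reads of cortical mock (exact counting interval 1.53 to 59.2, which covers counting error only and not the gap between the 2 libraries). Against midbrain mock the level was 3.95-fold lower at 2 weeks (0.918 to 35.6) and 6.49-fold lower at 4 weeks (0.998 to 273), and both intervals include no change. A count of 3 reads, taken as the floor, corresponded to 0.163 to 0.576 CPM across the libraries.

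Ntf3 (chr6:126101412-126166910, minus strand), which encodes neurotrophin-3, the ligand of TrkC, had 4 and 3 reads in cortical mock and 6 and 11 in midbrain mock. It had 1 read in a single midbrain library at 2 weeks and 0 in the other 7 shPTB libraries. Each mock library therefore had more reads than any shPTB library. Against midbrain mock the level was 8.95-fold lower at 2 weeks (counting interval 1.40 to 374) and at least 2.45-fold lower at 4 weeks, with the floor of 3 reads taken over the group; in cortex the mock level was under that floor once depth was allowed for, and no fold is given. Fitted without the filter, neither ligand passed in any comparison with mock, and the lowest adjusted p was 0.0902, for Ntf3 in midbrain at 4 weeks.

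Bdnf (chr2:109674700-109727007, plus strand), which encodes the ligand of TrkB, was at 2.38 and 3.50 CPM in cortical mock, at 0.562 and 1.30 CPM at 2 weeks and at 0.366 and 0.192 CPM at 4 weeks. The midbrain levels were 2.44 and 2.05 CPM in mock, 2.04 and 3.31 at 2 weeks, and 3.73 and 3.21 at 4 weeks. Cortical shPTB libraries thus lay below all mock libraries, while midbrain shPTB libraries overlapped midbrain mock at 2 weeks and lay above it at 4 weeks. In cortex Bdnf fell at 2 weeks (log2 fold change -1.61 ± 0.48 (SE), adjusted p = 0.0228) and at 4 weeks, where 3 reads remained against 85 (10.1-fold lower, counting interval 3.36 to 50.2; adjusted p = 0.00145). The 2-week call ended without cortical mock library 2 (adjusted p = 0.0762), without the first cortical 2-week library (0.163) and in DESeq2 (0.0522). The midbrain values were 0.25 ± 0.40 (adjusted p = 0.662) and 0.62 ± 0.40 (0.234). All Bdnf reads of every library were assigned to 1 transcript, and the antisense gene Gm45346, which shares 896 exonic bases with Bdnf, had 0 reads.

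At 4 weeks the regions differed for Bdnf: 51 reads in midbrain against 3 in cortex, 12.3-fold higher (counting interval 3.99 to 61.8; adjusted p = 0.00441), in a comparison where 2 of the 7 genes (1 higher, 1 lower) and 7.99% of all genes were called. Without the second cortical 4-week library that call ended (adjusted p = 0.0647). The 4-week response itself, midbrain minus cortex, differed by 3.94 ± 0.74 (edgeR, adjusted p = 0.0168). With 3 cortical reads at 4 weeks, the SE of this difference does not give its precision. This difference did not pass when any single 4-week library was left out (adjusted p up to 0.118).

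Gfra1 (chr19:58235604-58455909, minus strand), the co-receptor that binds GDNF, had opposite courses in the 2 regions by CPM. In cortex it was at 46.1 and 48.1 CPM in mock, 31.1 and 30.8 at 2 weeks, and 26.7 and 27.1 at 4 weeks. Midbrain cultures had it at 11.7 and 15.5 CPM in mock, 20.6 and 19.5 at 2 weeks, and 32.5 and 32.4 at 4 weeks. Cortical mock was the highest group and midbrain mock the lowest, with no overlap between any of the 6 groups.

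Gfra1 fell in cortex, with log2 fold changes of -0.61 ± 0.17 and -0.81 ± 0.18 at the 2 times (adjusted p = 0.0199 and 0.00407). With TMM scaling it rose in midbrain, by 0.56 ± 0.18 and then 1.25 ± 0.18 (edgeR, adjusted p = 0.0342 and 0.000314). The midbrain rise at 2 weeks did not pass in DESeq2 (adjusted p = 0.0792), without the first midbrain mock library (0.218) or without either 2-week library (0.117 and 0.175), and scaled to total reads it was -0.095. Scaled to total reads, the 4-week rise was 0.40 and did not pass (adjusted p = 0.0769); in cortex the 2-week fall did not pass without either of its 2-week libraries (adjusted p = 0.101 and 0.111).

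In the mock cultures Gfra1 was lower in midbrain than in cortex (-1.79 ± 0.18, adjusted p = 0.000273), as was Ntrk3 (-1.62 ± 0.28, adjusted p = 0.0116). These were the 2 of 7 genes called between the mock regions, beside 2.19% of all genes. Fitted on the 4 mock libraries alone, 0 of all genes were called (adjusted p = 0.24 for Gfra1). The difference of the regions in the Gfra1 response was 1.16 ± 0.25 at 2 weeks, which did not pass (adjusted p = 0.0758), and 2.06 ± 0.25 at 4 weeks, which did (adjusted p = 0.00157). At 4 weeks the 2 regions lay closer than in mock (log2 difference 0.27 ± 0.18, adjusted p = 0.468), though both midbrain libraries were above both cortical ones. The difference in response thus also held the difference in where the mock cultures lay.

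Gfra2 (chr14:70890120-70979838, plus strand), the co-receptor for neurturin, rose in both regions and went on rising between 2 and 4 weeks. In cortex it was at 3.37 and 3.50 CPM in mock, 39.9 and 33.3 at 2 weeks, and 103 and 109 at 4 weeks. In midbrain it was at 5.64 and 4.17 CPM in mock, 17.4 and 17.0 at 2 weeks, and 38.5 and 32.3 at 4 weeks. Both mock groups lay lowest, cortex at 4 weeks highest, and cortex at 2 weeks overlapped midbrain at 4 weeks.

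The log2 fold changes of Gfra2 against mock were 3.41 ± 0.22 and 4.95 ± 0.22 in cortex (adjusted p = 1.6e-06 and 2.4e-07) and 1.80 ± 0.20 and 2.84 ± 0.21 in midbrain (adjusted p = 8.2e-05 and 3.1e-06). All 4 calls stood under each of the alternatives run. Between 2 and 4 weeks the cortical level rose by a further 1.54 ± 0.19 (adjusted p = 0.00195), in a comparison where 1 of the 7 genes rose, 1 fell and 2.77% of all genes were called. The midbrain rise from 2 to 4 weeks was 1.04 ± 0.19 (adjusted p = 0.0219; 1 of the 7 rose and 1 fell, with 2.66% of all genes called), and it did not pass when any of its 4 libraries was left out (adjusted p 0.133 to 0.242). The response was smaller in midbrain than in cortex. The 2-week difference, midbrain minus cortex, was -1.60 ± 0.29 (adjusted p = 0.0319) in a comparison with 1 of 7 genes and 0.685% of all genes called. The 4-week difference was -2.10 ± 0.29 (adjusted p = 0.00285), with 3 of 7 genes and 2.55% of all genes called. The 2-week difference did not pass without 6 of its 8 libraries, each left out alone (adjusted p up to 0.194), and the 4-week one passed in each such fit.

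Markers of the oligodendrocyte lineage were also higher in cortical shPTB cultures. Their sum was 161 to 186 CPM in cortical mock and 412 to 463 CPM in cortical shPTB libraries, but 254 to 298 CPM in midbrain mock and 229 to 269 CPM in midbrain shPTB libraries. Of 9 tested, 6 and 5 rose in cortex at the 2 times (17.5 and 18.5% of all genes) and 4 and 2 in midbrain (15.9 and 18.7%). In each comparison 2 fell (17.6 and 20.9% of all genes in cortex, 14.7 and 20.4% in midbrain). In the difference of the responses 2 and 4 of the 9 were lower in midbrain, with 0.685 and 2.55% of all genes called either way. Their part in the Gfra2 result was not tested.

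Ret (chr6:118151745-118197718, minus strand), the kinase that GDNF family ligands signal through, rose from at most 4 reads in any mock library. In cortex it was at 0.116 and 0.318 CPM in mock (2 and 4 reads), 73.6 and 74.2 CPM at 2 weeks, and 24.4 and 28.2 at 4 weeks. In midbrain it was at 0 and 0.128 CPM in mock (0 and 2 reads), 17.2 and 16.1 at 2 weeks, and 15.5 and 14.7 at 4 weeks. No shPTB library came near the mock range, and the order of the shPTB groups was cortex at 2 weeks, cortex at 4 weeks, midbrain at 2 weeks, then midbrain at 4 weeks, without overlap.

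Ret rose in cortex, with log2 fold changes of 8.42 ± 0.40 and 6.93 ± 0.40 at the 2 times (edgeR, adjusted p = 2.9e-07 and 6.8e-07). Cortical mock held 6 reads in all, too few for these SE values to give the precision. In midbrain, where mock held 2 reads in all, Ret was 283-fold higher at 2 weeks (counting interval 77.7 to 2349, adjusted p = 9.8e-07). At 4 weeks it was 257-fold higher (70.2 to 2133, adjusted p = 8.6e-07). All 4 calls stood under each of the alternatives run. From 2 to 4 weeks the cortical level then fell (-1.49 ± 0.26, adjusted p = 0.0130), a call that ended without any one of the 4 libraries (adjusted p 0.103 to 0.192). In midbrain the value from 2 to 4 weeks was -0.14 ± 0.26 (adjusted p = 0.836).

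At 2 weeks Ret was lower in midbrain than in cortex (-2.15 ± 0.26, adjusted p = 0.00185), and with Gfra2 (-1.09 ± 0.19, adjusted p = 0.0146) it was 1 of the 2 genes called there, beside 2.94% of all genes. The Gfra2 call ended without any one of the 4 libraries (adjusted p 0.0766 to 0.156) and with scaling to total reads (0.0556). At 4 weeks the Ret gap was -0.80 ± 0.26 (adjusted p = 0.100). It passed when fitted on the 2 groups alone (-0.78, adjusted p = 0.000175) and in DESeq2 (-0.80, adjusted p = 0.0483). The difference of the regions in the Ret response to shPTB did not pass (edgeR, -0.56 ± 1.59 and 0.79 ± 0.79, adjusted p = 0.984 and 0.831). The few mock reads limit these SE values as well. Markers of neurons in which RET is best known differed among themselves. Slc6a3, the dopamine transporter, and Chat and Mnx1 of cholinergic and motor neurons had 0 reads in all 12 libraries. Of 4 dopaminergic markers tested, Th, Nr4a2 and Lmx1b rose in cortex at 2 weeks, where 17.5% of all tested genes rose. In the other 3 comparisons with mock, in which Ret also rose, only Lmx1b did. There 18.5% (cortex, 4 weeks), 15.9 and 18.7% (midbrain, 2 and 4 weeks) of all genes rose. Slc18a2 fell in midbrain at 2 weeks, as did 14.7% of all genes. The 8 dopaminergic markers summed to 2.21 to 4.43 CPM in mock and 4.42 to 7.90 CPM in shPTB libraries, and 1 to 3 of the 8 reached 1 CPM in any group; their part in the Ret result was not tested.

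The receptor is annotated with 2 coding ends, which are shown because nearly all Ret reads were assigned to the shorter one, a coding length of 3219 bases (transcript Ret-202) against 3345 (Ret-201). The last 30 bases that both share are in lower case and the bases that each has for itself in capitals, the whole of its own end with the stop codon for Ret-202 and the first 60 bases for Ret-201, from the GENCODE M21 transcripts (GRCm38).
Ret-202: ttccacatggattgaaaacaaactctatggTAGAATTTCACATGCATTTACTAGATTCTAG
Ret-201: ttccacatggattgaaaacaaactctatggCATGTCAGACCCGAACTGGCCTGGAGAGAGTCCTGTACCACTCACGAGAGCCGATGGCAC
In the 8 shPTB libraries together, 1639 of 1650 Ret reads, or 99.3%, were on Ret-202 (exact 95% binomial interval 98.8 to 99.7%, counting error only), between 98.7 and 100% in each library. The 8 Ret reads of the mock libraries were all assigned to Ret-202, too few to compare.

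Ntrk2 (chr13:58806569-59133970, plus strand), the receptor of BDNF, was well expressed in all groups. In cortex it was at 517 and 485 CPM in mock, 530 and 569 at 2 weeks, and 519 and 499 at 4 weeks. In midbrain it was at 348 and 360 CPM in mock, 441 and 462 at 2 weeks, and 349 and 359 at 4 weeks. Each midbrain library lay below each cortical one, while mock and 4-week libraries overlapped within both regions. The region difference did not pass in mock, at 2 weeks or at 4 weeks (edgeR, adjusted p = 0.225, 0.465 and 0.0832). Fitted on the 2 groups alone, the 2-week and 4-week values passed (-0.28 and -0.51, adjusted p = 7.7e-05 and 1.6e-08).

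No comparison of Ntrk2 with mock passed: the log2 fold changes were 0.13 ± 0.16 and 0.02 ± 0.16 in cortex (adjusted p = 0.553 and 0.923) and 0.35 ± 0.16 and 0.00 ± 0.16 in midbrain (adjusted p = 0.125 and 0.998). The midbrain 2-week value passed without both mock libraries numbered 1 (0.33, adjusted p = 0.000158), without both numbered 2 (0.38, adjusted p = 1.56e-05) and with a replicate block within mock (0.34, adjusted p = 0.000461). The cortical 2-week value passed without both numbered 1 (0.17, adjusted p = 0.0281). Other scalings also changed the calls. Relative to total reads Ntrk2 was lower: -0.62 and -1.08 in cortex (adjusted p = 0.0148 and 0.000501), and -0.87 for the midbrain 4-week cultures (adjusted p = 0.00223). With an offset for the mean transcript length it was higher, by 1.21 and 1.20 in cortex and 1.14 and 1.09 in midbrain, and all 4 passed (adjusted p 0.00188 to 0.00393).

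That offset follows which Ntrk2 transcript the reads were assigned to. TrkB is made as a full-length receptor with the kinase and as a truncated form without it, and the sequences below show where the coding sequences part: the last 30 shared bases in lower case, then in capitals the whole own end of the truncated Ntrk2-202 with its stop codon and the first 60 own bases of the full-length Ntrk2-201.
Ntrk2-202: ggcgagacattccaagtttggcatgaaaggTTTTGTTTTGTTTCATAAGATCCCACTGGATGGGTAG
Ntrk2-201: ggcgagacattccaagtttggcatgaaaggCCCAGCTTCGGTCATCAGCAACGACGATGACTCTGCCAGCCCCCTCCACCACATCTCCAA
Transcripts with a complete coding sequence were split at 80% of the longest one, into 5 truncated and 2 full-length ones. Of the reads on these transcripts, the truncated ones held 98.4 ± 0.342% in mock (SD, n = 4) and 98.2 ± 0.321% in shPTB libraries (SD, n = 8). The shares ran from 97.7 to 98.7% in all 12 libraries and the groups overlapped (difference -0.203 percentage points, exact two-sided permutation p = 0.343). In TPM the difference was 0.687 points the other way (exact permutation p = 0.00404, the smallest that the 495 arrangements can give).

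Within the truncated form the reads moved between 2 transcripts that share their coding length of 1428 bases and differ in total length, 6846 bases for Ntrk2-202 and 3049 for Ntrk2-204. The longer Ntrk2-202 held 77.9 and 57.6% of Ntrk2 reads in cortical mock and 80.7 and 59.4% in midbrain mock, against 23.1 to 31.0% in the 8 shPTB libraries. The shorter Ntrk2-204 held 17.3 to 39.7% of the reads in mock, and in shPTB libraries 65.5 to 73.7%. No shPTB library overlapped a mock library for either transcript, although the 2 mock libraries of each region differed by more than 20 percentage points. These 2 transcripts were picked after their values were seen, so no test is given. The first mock library of each region had the larger share of Ntrk2-202, and the place of the reads along a transcript was not analysed here.

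**Figure D3:**
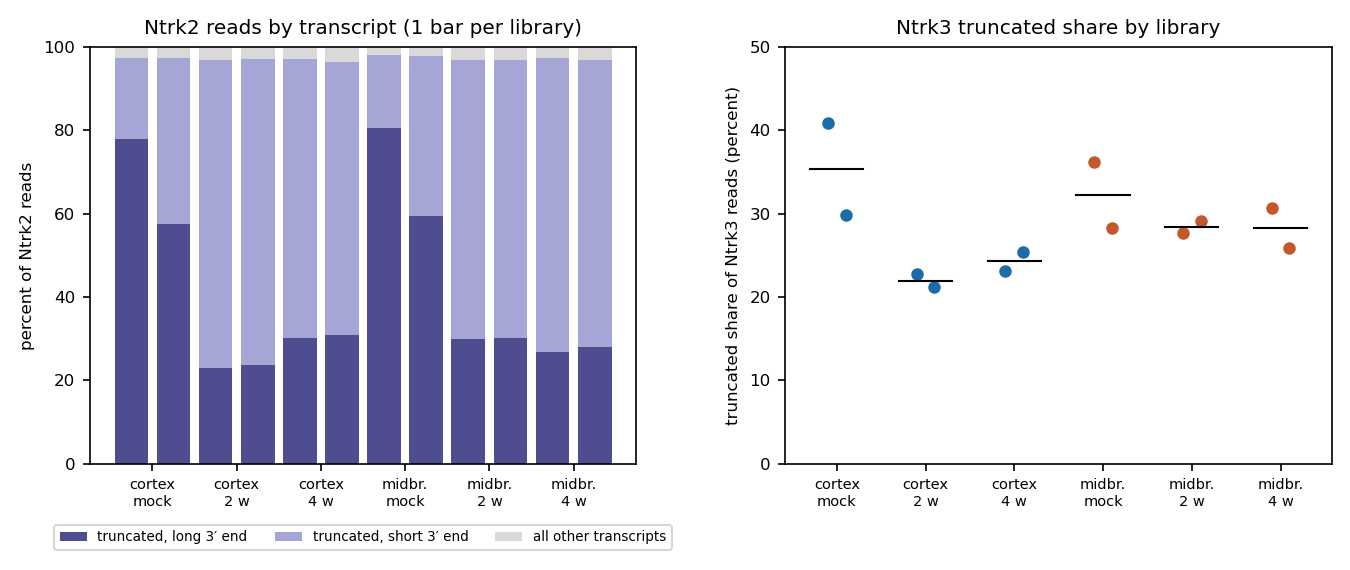
Left, percent of Ntrk2 reads assigned to the truncated transcript with the long 3′ end (Ntrk2-202), to the one with the short 3′ end (Ntrk2-204) and to all other transcripts, 1 stacked bar per library. Right, share of the truncated transcript among Ntrk3 reads on transcripts with a complete coding sequence. Each library is 1 point, with the mean of 2 as a line (blue cortex, orange midbrain). The long form takes 57.6 to 80.7% in the 4 mock libraries, against 23.1 to 31.0% in the 8 others.

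Ntrk3 (chr7:78175959-78738012, minus strand), the receptor of neurotrophin-3, rose in all 4 comparisons with mock. In cortex it was at 6.51 and 11.8 CPM in mock, 72.3 and 71.7 at 2 weeks, and 50.7 and 53.2 at 4 weeks. In midbrain it was at 2.39 and 3.53 CPM in mock, 68.7 and 65.8 at 2 weeks, and 50.01 and 49.3 at 4 weeks. The shPTB groups of the 2 regions lay close together at each time, and the mock groups lay below them, midbrain lowest.

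The log2 fold changes of Ntrk3 were 2.99 ± 0.27 and 2.52 ± 0.27 in cortex (adjusted p = 1.7e-05 and 3.7e-05) and 4.51 ± 0.29 and 4.07 ± 0.29 in midbrain (adjusted p = 1.7e-06 and 2.6e-06), and all 4 calls stood under each of the alternatives run. The difference of the regions in the Ntrk3 response, midbrain minus cortex, was 1.52 ± 0.37 and 1.55 ± 0.37 at the 2 times, and neither passed (adjusted p = 0.128 and 0.0583); the 4-week value passed under 11 of its 19 alternatives. Between 2 and 4 weeks the values were -0.47 ± 0.25 in cortex and -0.44 ± 0.25 in midbrain (adjusted p = 0.426 and 0.391). In both regions each 4-week library lay below each 2-week library. Fitted on the 2 groups alone, where far more of all genes were called, both values passed (-0.51 and -0.46, adjusted p = 0.000623 and 0.000284). With a replicate block within mock they also passed (adjusted p = 0.00173 and 0.00138). Within shPTB cultures the regions differed by -0.10 ± 0.25 and -0.07 ± 0.25 (adjusted p = 0.921 and 0.942).

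Like TrkB, TrkC has a truncated form with an end of its own in place of the kinase. The first 60 own bases after the last 30 shared ones are printed in capitals for the truncated Ntrk3-202 and the full-length Ntrk3-206, which held most of the reads of each kind.
Ntrk3-202: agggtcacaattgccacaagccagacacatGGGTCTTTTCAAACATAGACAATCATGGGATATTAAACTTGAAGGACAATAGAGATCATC
Ntrk3-206: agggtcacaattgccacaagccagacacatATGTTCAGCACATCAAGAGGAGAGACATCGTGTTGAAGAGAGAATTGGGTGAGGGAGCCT
The truncated share is taken out of the Ntrk3 reads on transcripts with a complete coding sequence, not out of all Ntrk3 reads. It was 40.8 and 29.8% in cortical mock and 36.3 and 28.3% in midbrain mock. It was 22.8 and 21.2% in cortex at 2 weeks, 23.2 and 25.4% at 4 weeks, and 27.6 and 29.1% then 30.7 and 25.9% in midbrain. Every cortical shPTB library lay below both cortical mock libraries, whereas midbrain shPTB libraries overlapped midbrain mock.

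Over both regions the truncated share of Ntrk3 fell from 33.8 ± 5.83% in mock (SD, n = 4) to 25.7 ± 3.30% in shPTB libraries (SD, n = 8), a difference of -8.06 percentage points (exact two-sided permutation p = 0.0242). The difference was -12.2 points within cortex (exact permutation p = 0.133, the smallest that 15 arrangements can give) and -3.92 points within midbrain (exact permutation p = 0.4). It did not pass without the first cortical mock library (-5.72 points, exact permutation p = 0.0727) or the first midbrain mock library (-7.24 points, exact permutation p = 0.0727). The mock shares rest on 42.2 to 131 reads per library, which limits them more than the 217 to 528 reads of the shPTB libraries. The permutation takes the 4 mock libraries as separate, although those with the same number deviated alike over all tested genes (correlation 0.687).

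Ngfr (chr11:95568818-95587735, minus strand), the p75 receptor, rose in both regions at 2 weeks. In cortex it was at 0.813 and 0.239 CPM in mock, 6.55 and 6.49 at 2 weeks, and 2.38 and 2.50 at 4 weeks. In midbrain it was at 0.434 and 0.321 CPM in mock, 7.02 and 6.29 at 2 weeks, and 1.11 and 0.402 at 4 weeks. The 2-week groups of both regions overlapped each other at the top, and midbrain at 4 weeks overlapped the mock range. These low levels rest on few reads: 14 and 3 in cortical mock, 8 and 5 in midbrain mock. At 4 weeks there were 13 and 13 reads in cortex and 8 and 3 in midbrain, where 3 reads is the floor.

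Ngfr rose in cortex, by 3.53 ± 0.48 and then 2.12 ± 0.53 (adjusted p = 0.000280 and 0.00865), and after 2 weeks in midbrain, by 4.08 ± 0.49 (adjusted p = 0.000133). In midbrain at 4 weeks the value was 0.96 ± 0.62 (adjusted p = 0.246). Scaled to total reads, the cortical 4-week value was 0.99 and did not pass (adjusted p = 0.179). From 2 to 4 weeks Ngfr fell in midbrain (-3.13 ± 0.51, adjusted p = 0.0135), a call that ended without any one of the 4 libraries (log2 fold change -4.00 to -2.58). The cortical value was -1.41 ± 0.46 (adjusted p = 0.158). It passed when fitted on the 2 groups alone (-1.45, adjusted p = 0.00313) and with a replicate block within mock (-1.41, adjusted p = 0.0107). Of 8 markers of Schwann cells, which carry p75 in nerve, 3 were tested: Sox10, which oligodendrocyte lineage cells also express, rose in all 4 comparisons with mock, Pmp22 fell in all 4 and Prx in 3. Foxd3 had 0 reads in every group, 2 of the 8 markers reached 1 CPM in each group, and their sum ran from 151 to 172 CPM in mock, against 59.1 to 140 CPM in shPTB libraries; their part in the Ngfr result was not tested.

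The other ligands and receptors of the GDNF family were read from a list of 10 genes, of which Artn, Pspn, Gfra3 and Gfral were not tested for want of reads. In cortex 1 of the 6 tested rose and 1 fell at each time, near the share of all genes (17.5% up and 17.6% down, then 18.5 and 20.9%). In midbrain 2 rose and 0 fell at 2 weeks (15.9 and 14.7% of all genes), and 1 rose and 1 fell at 4 weeks (18.7 and 20.4%). Nrtn, which encodes neurturin, the ligand of GFRα2, was at 11.45 and 8.91 CPM in cortical mock, 4.68 and 5.84 at 2 weeks, and 1.65 and 2.88 at 4 weeks. It fell there, with log2 fold changes of -0.95 ± 0.28 and -2.17 ± 0.32 (adjusted p = 0.0216 and 0.000321), the opposite direction to its co-receptor gene Gfra2. In midbrain Nrtn was -0.45 ± 0.26 at 2 weeks (adjusted p = 0.210) and fell at 4 weeks (-1.12 ± 0.27, adjusted p = 0.00775).

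Ncam1, an adhesion molecule that can also serve as a GDNF receptor, rose in all 4 comparisons, by 1.70 ± 0.22 and 1.07 ± 0.21 in cortex and 1.24 ± 0.22 and 0.93 ± 0.21 in midbrain (adjusted p 0.000173 to 0.00599). It was at 159 to 248 CPM in mock and 394 to 654 CPM in shPTB libraries, with no overlap. Gfra4, the co-receptor for persephin, rose in midbrain at 2 weeks (1.14 ± 0.37, adjusted p = 0.0361) and passed in none of the other 3. Gdf15, Sdc3 and Gas1 passed in none, with log2 fold changes from -0.56 to 0.65.

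Among 15 further neurotrophin genes 13 were tested. In cortex 3 rose and 2 fell at 2 weeks (17.5 and 17.6% of all genes), and 4 rose and 1 fell at 4 weeks (18.5 and 20.9%). The midbrain counts were 3 up and 2 down (15.9 and 14.7%), then 3 up and 0 down (18.7 and 20.4%). Of the sorting receptors that bind neurotrophins or their precursors, Sorcs1 rose in all 4 comparisons, by 1.62 ± 0.39 and 1.83 ± 0.39 in cortex and 2.76 ± 0.40 and 1.79 ± 0.43 in midbrain (adjusted p 0.000486 to 0.00794). Sorcs3 rose in cortex at 4 weeks (2.53 ± 0.92, adjusted p = 0.0475) from a mean of 0.138 CPM. Sort1 and Sorcs2 passed in none. Nradd, a relative of p75 that shares its death domain, fell in both regions at 2 weeks, the time when Ngfr was highest: the log2 fold changes were -1.52 ± 0.31 and -0.95 ± 0.27 (adjusted p = 0.00336 and 0.0208). Lingo1 and Rtn4r, partners of p75 in the Nogo receptor complex, passed in none.

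Mmp9, a protease that can cleave proneurotrophins, was named after its values were seen. It had 3 and 0 reads in cortical mock and 0 in both midbrain mock libraries. At 2 weeks it was at 10.3 and 7.95 CPM in cortex and 7.24 and 6.84 CPM in midbrain, and at 4 weeks at 1.47 and 1.73 and at 0.829 and 0.67 CPM. It rose 89.7-fold in cortex at 2 weeks (counting interval 29.9 to 442) and at least 79.8-fold in midbrain (adjusted p = 2.96e-05 and 2.01e-05).

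**Figure D4:**
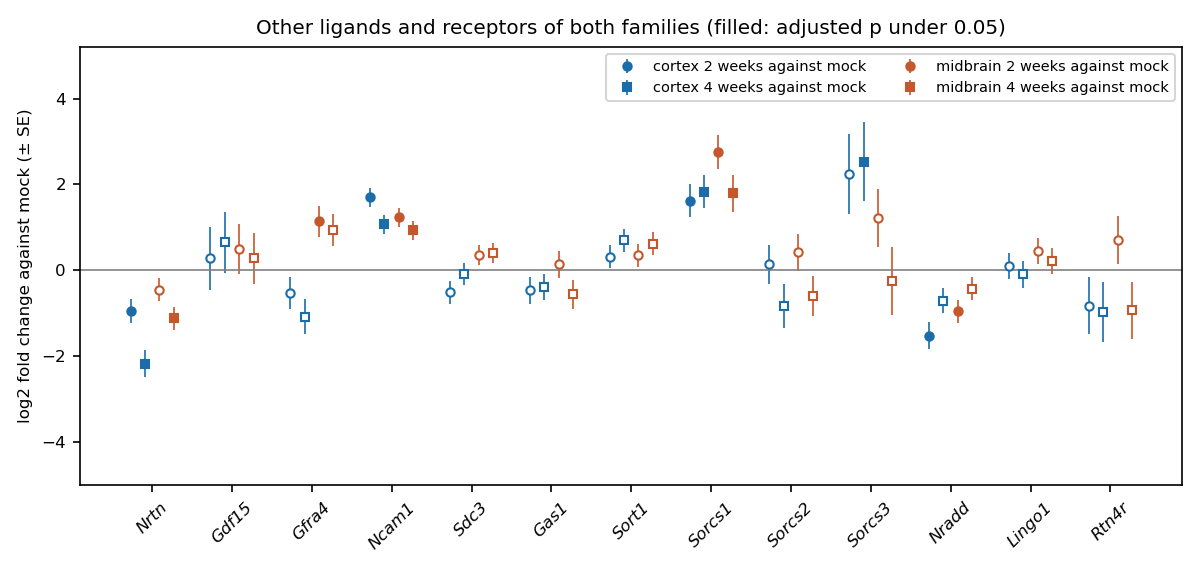
Log2 fold change against mock, with its standard error, of 13 other ligands and receptors of both families that reached a mean of 1 CPM in a group. Circles are 2 weeks and squares 4 weeks, blue cortex and orange midbrain, and filled symbols have an adjusted p under 0.05 (edgeR). Ncam1 and Sorcs1 are filled and above 0 in all 4 comparisons, and Nrtn is below 0 in all 4.

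Downstream of the receptors, 28 adaptor and signalling genes were listed and 25 tested. In cortex 2 rose and 6 fell at 2 weeks (17.5 and 17.6% of all genes), and 2 rose and 7 fell at 4 weeks (18.5 and 20.9%). The midbrain counts were 4 up and 4 down (15.9 and 14.7%), then 3 up and 8 down (18.7 and 20.4%). The list's median log2 fold changes were -0.38, -0.59, -0.14 and -0.52, beside -0.11, -0.12, -0.07 and -0.15 over all genes. Dok5, a docking protein that binds RET and TrkC, was at 15.6 to 26.6 CPM in mock and 1.73 to 4.53 CPM in shPTB libraries. It fell in all 4 comparisons, with log2 fold changes of -2.86 ± 0.28 and -3.21 ± 0.29 in cortex and -2.67 ± 0.25 and -3.01 ± 0.26 in midbrain (adjusted p 9.16e-06 to 2.77e-05).

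Grb10, an adaptor that binds receptor tyrosine kinases, fell in all 4 as well, with -2.05 ± 0.38 and -2.41 ± 0.41 in cortex and -3.32 ± 0.35 and -3.49 ± 0.36 in midbrain. Sh2b2, an adaptor of the SH2B family, had 136 reads in cortical mock and 2 at 4 weeks, 24.3-fold lower (counting interval 6.61 to 203; adjusted p = 0.00239). The cortical 2-week value (-2.41 ± 0.68, adjusted p = 0.0177) and the midbrain 4-week value (-3.40 ± 0.76, adjusted p = 0.00515) also passed, and the midbrain 2-week value did not (-1.47 ± 0.60, adjusted p = 0.0839).

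Of 15 listed genes that respond to ERK signalling, the kinase cascade below these receptors, 11 were tested. In cortex 2 rose and 2 fell at 2 weeks (17.5 and 17.6% of all genes), and 0 rose and 3 fell at 4 weeks (18.5 and 20.9%). The midbrain counts were 3 up and 1 down (15.9 and 14.7%), then 3 up and 2 down (18.7 and 20.4%). Etv4, an ETS factor known as a target of GDNF signalling in several tissues, was at 5.35 and 4.30 CPM in cortical mock. It fell in cortex at 2 weeks (-2.96 ± 0.41, adjusted p = 0.000298) and was 17.4-fold lower at 4 weeks, with 3 reads left of 146 (counting interval 5.85 to 85.5; adjusted p = 8.23e-05). In midbrain, with 3.27 to 3.58 CPM in mock against 2.10 to 3.04 CPM after shPTB, it did not pass (adjusted p = 0.126 and 0.383).

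Dusp4, a phosphatase that switches off ERK, rose in midbrain by 2.74 ± 0.46 and 2.93 ± 0.46 (adjusted p = 0.00116 and 0.000591) and in cortex at 2 weeks by 1.81 ± 0.45 (adjusted p = 0.00922), where its libraries lay at 8.24 and 3.25 CPM. The cortical 4-week value was 0.65 ± 0.49 (adjusted p = 0.312). Fos, an immediate early gene, fell in all 4 comparisons, with -1.78 ± 0.27 and -2.65 ± 0.29 in cortex and -1.22 ± 0.25 and -0.92 ± 0.25 in midbrain (adjusted p 4.96e-05 to 0.0138).

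The genes whose levels were most like those of each of the 5 receptor genes with a group mean of at least 10 CPM were found by Pearson's r of log2 CPM over the 12 libraries, among 7033 other genes, and are given as a description, since the 12 points share their groups and depths. For Ret they were Chodl (r = 0.993), a membrane lectin, with Tmem104 (0.992) and Slc46a1 (0.990). Chodl went from group means of 3.09 and 3.01 CPM in cortical and midbrain mock to 351 and 131 at 2 weeks and 185 and 107 at 4 weeks. For Gfra2 they were the antisense transcript Gm2415 (0.988), the noncoding RNA Gm5083 (0.987) and Prodh (0.986), a proline-degrading enzyme, which rose with it through both times, from 13.8 to 92.9 and 183 CPM in cortex.

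For Ntrk3 the most like were 4930594M22Rik (0.988), 0610040J01Rik (0.987) and Fam102a (0.986). For Ntrk2 they were Sgip1 (0.967), Ndufs1 (0.951) and Slc15a2 (0.934), each higher in cortex than in midbrain. Gfra1 had no close companion: Cadm2 (0.847), Prdx6 (0.828) and Prdx1 (0.817) came nearest.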

How the data were processed

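The 12 libraries (6 groups of 2) were read as the estimated counts per transcript that the authors deposited. The submitters' processing notes name mm10, DESeq2, Salmon 0.14.1 and cutadapt 2.3 (annotation release: not given in the sources used here). Per the labels' protocols, cDNA was caught by its biotin primer and copied with random primers; strand is not stated. TPM and effective lengths as deposited by the authors served the length offset and one alternative. Of 140658 transcripts 140137 matched GENCODE M21 by identifier (unmatched: 0.0547 to 0.129% of reads). Estimated counts were summed per gene and rounded; genes passed edgeR's filterByExpr (minimum count 10, total 15), and all 12 libraries were fitted in edgeR 4.0.16 (R 4.3.3) with TMM and Benjamini-Hochberg adjustment over 14607 genes. The SE is the log2 fold change divided by the square root of F. It restates the test and can misstate the precision where a group holds few reads. The common dispersion was 0.0550 with 6 residual degrees of freedom. The fit was tried on simulated counts modelled on the cortical mock and cortical 2-week libraries only, with the same spread in both groups. The full design and the wider spread of the mock groups were not simulated. The 2 libraries of a group differed by more than sampling noise (chi-square per gene 2.03 to 2.58 in shPTB groups, 118 and 106 in cortical and midbrain mock). This does not show that they were separate cultures. Each library was counted as a sample, and all groups shared a single estimate of the spread per gene. Counting intervals are exact at 95%. Permutation tests used SciPy 1.17.1.

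The members and lists were chosen with earlier results of these data known. Named were the 9 genes, each listed ligand or receptor reaching a group mean of 1 CPM, the 3 largest called changes of the adaptor and ERK lists, and the 3 genes most like each receptor; a few listed genes are not reported here. Markers of neurons summed to 122.5 to 212 CPM in mock, against 63.6 to 134 CPM after shPTB, but differed among themselves. Of 8 tested, 4 rose and 2 fell in cortex at 2 weeks (17.5 and 17.6% of all genes), then 1 and 2 (18.5 and 20.9%). In midbrain 1 rose and 2 fell (15.9 and 14.7%), then 1 and 4 (18.7 and 20.4%). Of 10 listed, 4 and 5 reached 1 CPM in the mock groups and 5 to 9 in the shPTB groups. Endothelial markers summed to 1.35 to 23.4 CPM and those of motor and sensory neurons to at most 1.50 CPM. Alternatives were other scalings, filters, a length offset, DESeq2 1.42.0, fits of fewer groups, a replicate block and leaving out libraries; leaving out both mock libraries of a number and a block within mock were chosen after seeing the data.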

Additional observations from a re-analysis of the deposited data

Results flagged for a closer look

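For 3 genes the response to shPTB differed between midbrain and cortex by the test of the difference itself (edgeR, interaction term, midbrain minus cortex on the log2 scale). For Gfra2 it was -1.60 ± 0.29 and -2.10 ± 0.29 at the 2 times (adjusted p = 0.0319 and 0.00285): the gene rose in both regions, less in midbrain, in all 8 libraries compared with the mock libraries of their region. For Gfra1 it was 2.06 ± 0.25 at 4 weeks (adjusted p = 0.00157). By CPM both midbrain libraries lay above and both cortical libraries below their mock libraries, whereas in TPM both regions lay below mock. For Bdnf it was 3.94 ± 0.74 at 4 weeks (adjusted p = 0.0168), on 3 reads in cortex and 51 in midbrain. The 3 cortical reads are too few for this SE to give the precision. Cortical mitochondrial shares at 4 weeks were 47.7 and 48.3%, against 36.4 and 37.2% in midbrain; their part in these differences was not tested.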

How the results depend on the processing

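Over the 7 tested genes and 11 comparisons, 1056 of 1196 alternative values kept the side of the threshold, 51 lost the call, 85 gained it and 4 turned with a call on one side. Among the 1056, 44 had the opposite sign, with no call in either fit. The 4 were under scaling to total reads: Ntrk2 against mock at -0.62 and -1.08 (cortex) and -0.87 (midbrain, 4 weeks), and Gfra1 at -0.095 (midbrain, 2 weeks). In the Ntrk2 truncated share, TPM in place of reads gave 0.687 points. Counts of genes called against mock stayed within 1.5 times of 6, 6, 5 and 4. The other counts moved: fitted on the compared groups alone they were 5 (cortex and midbrain, 4 against 2 weeks, and both shPTB region comparisons), 0 (mock regions) and 0 (difference of responses at 2 weeks), while 24.0, 32.3, 26.8 and 33.5% of all genes were then called in the first 4. Without both mock libraries numbered 1, or without both numbered 2, they were 4 (cortex over time, difference at 2 weeks) and 5 (midbrain over time, both shPTB region comparisons). A block within mock gave 4 and 5 over time, 5 and 5 between regions and 3 for the difference at 2 weeks. The length offset gave 1 in cortex over time, scaling to total reads 1 in midbrain over time and 1 between regions at 2 weeks, the strict filter 1 and DESeq2 4 between regions at 4 weeks, and no filter 2, the strict filter 2 and DESeq2 3 for the difference at 2 weeks. Leaving out single libraries gave 1 to 1 in cortex over time, 0 to 0 in midbrain over time, 1 to 2 between mock regions, 1 to 1 and 1 to 2 between shPTB regions and 0 to 2 for the difference at 2 weeks; for the Ntrk3 truncated share it gave -9.91 to -5.72 points, losing the call without either first mock library. The cause of these shifts was not tested, except that fits of fewer groups test fewer genes and use fewer samples.

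Replicate numbers went together in mock but not elsewhere: deviations correlated at 0.687 between the mock groups and -0.0319 to 0.0328 in the other 14 pairs of groups. Mock libraries with the same number were thus not independent of each other, as the main fit and the permutation tests take them to be. With the replicate block, counts of called genes were 6, 6, 5 and 4 against mock, 2 in each comparison over time or between regions, 1 for the difference at 2 weeks and 4 at 4 weeks, the added gene being Ntrk3. Low reads limit Gdnf, Ntf3, Bdnf in cortex, Ret in mock, and Ngfr in mock and at 4 weeks.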
